A study of Mus musculus with 12 samples.

Results

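The genes described here encode the proteins of the mitochondrial ribosome. They were taken as every gene name in the deposited count tables that starts with Mrpl or Mrps followed by a digit, leaving out 4 names marked as pseudogenes, which gave 76 of 44345 names. By their known place in the ribosome, 49 of the 76 belong to the large subunit and 26 to the small subunit. The remaining gene, Mrps36, carries a ribosomal name, but its protein is known as a part of the oxoglutarate dehydrogenase complex. Their levels were read in dorsal root ganglia (DRG) of C57BL/6 mice, put at 5 to 8 weeks of age by the labels, which name no allele or transgene for any group. The mice lived for 10 days either in standard housing, called SH, or with environmental enrichment, called EE. Each housing had 3 libraries of whole sciatic DRG, each pooled from 2 mice, and 3 libraries of large neurons, each pooled from 3 mice. The large neurons had a diameter of at least 30 µm and were cut from ganglion sections with a laser. The labels do not state that the 3 libraries in a group stem from different animals. Their p-values therefore reflect only how these libraries vary, part of which may be technical. The comparisons asked how each gene's level differed between EE and SH in either preparation.

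Mitochondria hold a small genome of their own and translate its messenger RNAs with a ribosome that differs from the one in the cytoplasm. Those messenger RNAs encode core subunits of the respiratory chain and of ATP synthase, while every protein of the mitochondrial ribosome is encoded in the nucleus, made in the cytoplasm and imported. The large subunit (39S) forms peptide bonds and the small subunit (28S) reads the messenger RNA. Some of the proteins descend from bacterial ribosomal proteins, and others were added in the mitochondrial lineage. Sensory neurons of the DRG have long axons and depend on mitochondrial ATP in the cell body and along the axon. By family, 46 of the 75 ribosomal genes have a bacterial counterpart and 29 are specific to mitochondria.

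Genes of the mitochondrial ribosome are known targets of transcription factors that act on nuclear genes for mitochondria, and their promoters share short motifs. RefSeq promoters (build GRCm38.p6, 250 bases before to 50 bases after the annotated start) were found for 67 of the 76 genes. The letters CCGGAAG, the core bound by ETS factors such as GABPA, lay on either strand in 24 of the 67 genes (35.8%), against 17.8% of 10812 other genes tested in whole DRG and 9.93% of 27025 genes in all. The NRF1 palindrome, which reads GCGC, any base and then TGCGC, was in 12 genes (17.9%), against 10.4% and 5.19%. The YY1 letters AAGATGGCG were in 8 genes (11.9%), against 3.13% and 1.64%. At least 1 of the 3 motifs was present in 39 of the 67 genes (58.2%), against 27.9% and 15.1%. The ETS letters end in the AAG with which the YY1 letters begin, so that 1 stretch can hold both. A match describes the sequence and shows no binding. The windows below, of 60 bases each, are shown as examples of each motif, 5′ to 3′ on the gene's strand with the motif in capitals. Mrpl44 (chr1:79775958-79776017, plus strand) has the NRF1 letters on the opposite strand, 35 bases before its start, and Mrpl32 (chr13:14613090-14613149, minus strand) and Mrpl12 (chr11:120484531-120484590, plus strand) have them on the gene's strand, 87 and 81 bases before. Mrps22 (chr9:98601680-98601739, minus strand) and Mrpl3 (chr9:105053208-105053267, plus strand) have the ETS letters 11 and 19 bases before their starts. In Mrpl36 (chr13:73330949-73331008, plus strand) the YY1 letters lie on the opposite strand, 31 bases before the RefSeq start. This start lies inside the gene as GENCODE vM21 places it, from 73328513 to 73332178.
Mrpl44: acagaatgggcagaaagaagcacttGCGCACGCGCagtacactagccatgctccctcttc
Mrpl32: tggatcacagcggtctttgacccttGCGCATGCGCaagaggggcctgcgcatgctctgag
Mrpl12: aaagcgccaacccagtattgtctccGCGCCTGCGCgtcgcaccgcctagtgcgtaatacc
Mrps22: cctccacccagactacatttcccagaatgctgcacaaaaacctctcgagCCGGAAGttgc
Mrpl3: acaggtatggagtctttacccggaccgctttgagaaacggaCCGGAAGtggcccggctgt
Mrpl36: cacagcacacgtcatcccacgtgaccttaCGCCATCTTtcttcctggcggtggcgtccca

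The libraries held between 11343579 and 17036481 reads in genes in whole DRG and between 19296230 and 29434351 in captured neurons. Levels are given as CPM, a gene's read count scaled to the size of its library, with edgeR's correction for library composition (TMM) unless stated otherwise. Whole-DRG libraries of the same number shared a sequencing lane. Captured libraries did not: EE replicate 1 was alone in lane 1, SH replicate 2 alone in lane 2, and the other 4 shared lane 3. Marker genes of large neurons summed to 9366 to 16034 CPM in captured libraries and to 14336 to 16483 CPM in whole DRG, and thus were not higher after capture. Nociceptor markers summed to 3106 to 4759 CPM in captured libraries and 3859 to 4336 CPM in whole DRG, and satellite glia markers to 2571 to 3467 and 3016 to 3658 CPM. Myelinating Schwann cell markers summed to 1040 to 1459 CPM there and to 6672 to 9675 CPM in whole DRG. Skeletal muscle markers (7 of 8 tested) summed to 649 CPM in captured SH replicate 2 and to 3.57 to 13.2 CPM in the other 5 captured libraries. In bulk samples, fewer cells of a type and less RNA per cell cannot be told apart.

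In whole DRG under SH, transcripts of 75 of the 76 genes were detected, with means from 2.23 to 84.0 FPKM. FPKM are the authors' values, read counts scaled to gene length and library size. The median over all 76 genes was 17.3 FPKM. This lay below the median of 102 FPKM over 90 cytoplasmic ribosomal protein genes. It also lay below the median of 65.3 FPKM over 37 nuclear genes named for respiratory complex I, the entry point of the respiratory chain. These 37 were taken by name alone (Ndufa, Ndufb, Ndufc, Ndufs or Ndufv followed by a digit). Ndufa4l2 is among them, and the place of each protein in complex I was not checked. Large-subunit genes had a median of 17.9 FPKM and small-subunit genes of 13.5 FPKM. Genes with a bacterial counterpart lay at a median of 17.3 FPKM and those specific to mitochondria at 15.6 FPKM. No test was made of these levels.

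The highest FPKM was that of Mrpl42, a large-subunit protein specific to mitochondria, with 90.4, 84.0 and 77.6 FPKM in the 3 SH libraries. Mrpl41, also specific to mitochondria, followed with 73.6, 68.1 and 68.5 FPKM. The lowest Mrpl42 library thus lay above the highest Mrpl41 library. Next came Mrpl27, a protein near the site of peptide bond formation (50.6 ± 1.39 FPKM, SD, n = 3), Mrpl52 (47.1 ± 4.48) and Mrpl20 (46.3 ± 0.697), whose ranges between libraries partly overlapped. Among small-subunit genes, Mrps16 was highest, at 37.3, 37.2 and 37.2 FPKM, followed by Mrps12, a protein of the decoding centre, at 26.5 ± 1.69 FPKM (SD, n = 3). At the low end, the small-subunit genes Mrps35 and Mrps10 lay at 2.23 ± 0.193 and 3.58 ± 0.243 FPKM, and the large-subunit genes Mrpl33 and Mrpl1 at 3.11 ± 0.111 and 4.92 ± 0.518 FPKM (SD, n = 3 each). The order of levels follows in part the gene lengths behind the authors' FPKM: over 75 genes Spearman's rho of FPKM with the implied length was −0.76, the length being 670 bases for Mrpl42 and 7514 for Mrpl33. The longest GENCODE vM21 transcripts of these 2 genes have other lengths, 3277 and 2741 bases. The ranking thus rests on the lengths used. By library size alone Mrpl48 (116 CPM, SH mean) lay above Mrpl42 (56.3 CPM). Genes that share a library are not independent points.

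**Figure D1:**
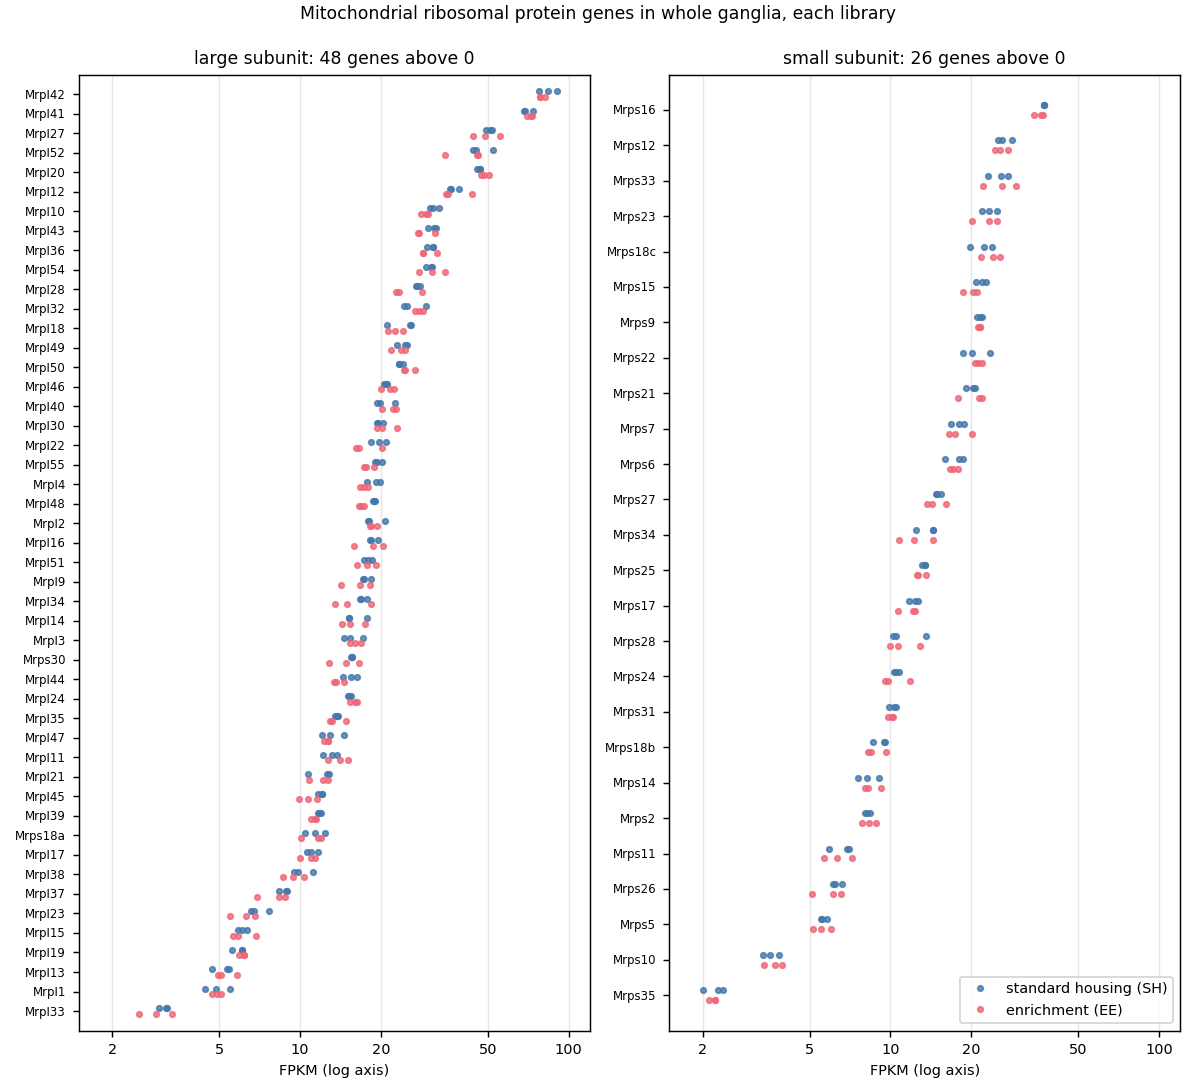
Each point is 1 whole-DRG library (blue SH, red EE, 3 of each) and each row a gene, large subunit left and small subunit right, on a log axis in FPKM. Levels run from 2.23 FPKM (Mrps35) to 84.0 FPKM (Mrpl42) as SH means, and in nearly every row the blue and red points lie close together or mixed; Mrpl53, at 0, and Mrps36 are not drawn.

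Mrpl53, a large-subunit gene specific to mitochondria, had 0 reads assigned to it in all 12 libraries. For assigned reads this allows at most 0.102 to 0.265 CPM per library (3 reads of its total, counting error only). In GENCODE vM21, 88.0% of its exon bases also belong to Ccdc142os or Gm42688. The deposited counts set ambiguous reads apart from the genes, at 0.314% to 0.411% of the counts per library. Whether reads of Mrpl53 were among them was not tested, so the limit does not bound its true level. Exon bases shared with another gene were found for 32 of the 76 genes, with 77.8% for Mrps34 (Mapk8ip3 and Nme3) and 69.8% for Mrps25 (Nr2c2). Values of these genes are therefore less certain than those of the others. The pseudogenes left out held at most 16 reads in a library (Mrps36-ps1 in captured EE replicate 1).

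Captured large neurons had lower levels of most of these transcripts than whole DRG. With scaling by library size alone, the SH mean was lower in captured neurons for 69 of 75 genes. The median ratio was 1.75-fold lower (log2 difference −0.81, range −3.17 to 0.44), against −0.22 over the 14800 genes compared. For 64 of the 75 genes (85.3%) every captured SH library lay below every whole SH library, beside 47.6% of all genes compared, and for 5 genes every captured library lay above, beside 31.0% of all. Cytoplasmic ribosomal protein genes (83 tested) and complex I genes (36 tested) were lower by a median of 2.01-fold and 2.004-fold. The preparations differ in kit, RNA integrity and cells, which cannot be told apart here, and no test was made.

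Mrpl14, a large-subunit protein with a bacterial counterpart, was the furthest below, with 14.5, 14.5 and 16.9 CPM in whole SH libraries and 2.39, 1.38 and 1.35 CPM in captured SH libraries. Mrpl34 had 11.1 ± 0.395 and 2.61 ± 0.683 CPM (SD, n = 3), and Mrpl10, a protein of the stalk base where translation factors bind, had a log2 difference of −2.03. On the other side, Mrpl39, specific to mitochondria, had 30.3, 29.7 and 30.0 CPM in whole DRG and 43.9, 38.2 and 39.9 CPM in captured neurons. Mrps35 (log2 difference 0.37), Mrpl1 (0.29) and Mrps31 (0.21) were also above their whole-DRG level, and these differences were described, not tested. Per kilobase of the same implied lengths, Mrpl41 ranked 1 and Mrpl42 ranked 2 in captured neurons. Spearman's rho between both preparations was 0.76 over 75 genes. Both values are divided by the same lengths, which builds in part of this rho and of these ranks. How far the order was kept apart from length was not tested. Across the members the log2 difference had a Spearman's rho of −0.41 with the GC content of the transcript and of 0.30 with its length. Over the 14604 genes with a reference transcript the values were −0.50 and 0.52. The members' transcripts had a median length of 1806.5 bases, against 3414.5 over those genes.

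**Figure D2:**
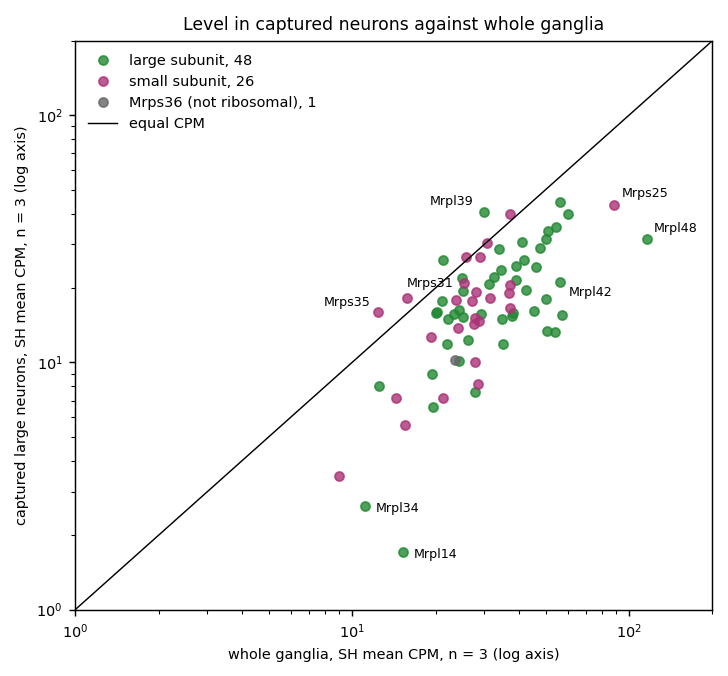
Each point is a gene, with its mean CPM in 3 whole-DRG SH libraries on the x axis and in 3 captured SH libraries on the y axis, both on log axes and scaled by library size. Of 75 genes, 69 lie below the line of equal CPM; Mrpl14 is the furthest below it and Mrpl39 the furthest above.

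In whole DRG, the level of mitochondrial ribosomal protein transcripts was nearly the same in both housings, with a median over genes of 0.987-fold. None of the 75 genes tested passed the threshold of an adjusted p of 0.05 (edgeR's quasi-likelihood test, with p-values adjusted over all genes by Benjamini-Hochberg), where 0.00631% of 15845 genes did. DESeq2 and limma-voom also called 0 of them. At an unadjusted p under 0.05 there was 1 gene, beside 2.9% of all genes. It was lower in EE, beside 1.55% of all genes on that side, and 0 were higher, beside 1.34%. The log2 fold changes of EE over SH lay between −0.16 and 0.12 with standard errors of 0.066 to 0.15, and 26 of 75 were positive (34.7%, beside 51.3% of all genes). Their median was −0.02, against 0.00279 over all genes. Summed over the 75 genes, the SH libraries held 2516, 2500 and 2453 CPM and the EE libraries 2380, 2531 and 2443 CPM, so that the groups overlapped. The EE libraries held both the lowest sum (replicate 1) and the highest (replicate 2). Schwann cell markers were also lowest in EE replicate 1 (6672 CPM) and highest in EE replicate 2 (9675 CPM), and their part in the members' values was not tested.

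The gene with the smallest p in whole DRG was Mrpl48, a large-subunit protein specific to mitochondria. It had 115, 117 and 116 CPM in the SH libraries and 109, 101 and 103 CPM in the EE libraries, the groups not overlapping. The log2 fold change was −0.15 (SE 0.066, adjusted p = 1.000 by edgeR's quasi-likelihood test). EE lay wholly below SH for 6 genes (8%, beside 4.29% of all genes): Mrpl48, Mrpl45, a protein that holds the ribosome at the inner membrane (−0.14), Mrpl44 (−0.14), Mrpl55 (−0.11), Mrpl10 (−0.10) and Mrps16 (−0.05). It lay wholly above SH for 3 genes (4%, beside 3.19%): Mrpl50 (0.11), Mrpl20 (0.08) and Mrpl24, a protein at the exit of the peptide tunnel (0.07). These shares are of the order of the background. For Mrpl44 the gap between the groups was narrow, and by the authors' FPKM they overlapped.

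Other members with the smallest p on either side, or picked for their roles, stayed within the same narrow band. Lower in EE were Mrpl28 (log2 fold change −0.13, SE 0.085) and Mrps15 (−0.11, SE 0.076), and higher were Mrps18c (0.12, SE 0.093), Mrpl11, a stalk-base protein (0.11, SE 0.080), Mrpl30 (0.09, SE 0.077) and Mrpl40 (0.09, SE 0.087). Mrpl12, which forms the stalk that recruits translation factors, had 60.4, 55.9 and 55.2 CPM in SH and 55.9, 66.7 and 53.8 CPM in EE. Mrpl3, close to the site of peptide bond formation, had a log2 fold change of 0.04 (SE 0.080), Mrps2 of 0.03 (SE 0.082), Mrps5 of −0.01 (SE 0.080), Mrps12 of −0.03 (SE 0.081) and Mrps22 of 0.04 (SE 0.095). Mrps34 lay at −0.13 (SE 0.10) and Mrps36 at −0.06 (SE 0.086). None of the paralogs named Mrps18 passed. Mrps18a, a large-subunit protein despite its name, had −0.01 (SE 0.084). Mrps18b had −0.05 (SE 0.094), and Mrps18c is given above.

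In captured large neurons, transcripts of most mitochondrial ribosomal proteins were slightly more abundant after enrichment, but no gene passed the threshold. Of 75 genes tested, 66 had a positive log2 fold change (88%, beside 49.9% of 16186 genes), with a median of 0.13, or 1.10-fold, against −0.00059 over all genes. By edgeR's quasi-likelihood test 0 genes were called after Benjamini-Hochberg adjustment, where 0.0185% of all genes were, and limma-voom called 0 too. DESeq2 called 1 of them, Mrps14, where it called 3.23% of all genes. Before adjustment, 17 genes had a p under 0.05, beside 15.9% of all genes. Of these, 16 were higher in EE (21.3%, beside 7.3% of all genes) and 1 was lower (1.33%, beside 8.62%). All 3 EE libraries lay above all 3 SH libraries for 19 genes (25.3%, beside 10.2%) and below them for 1 (1.33%, beside 10.9%).

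**Figure D3:**
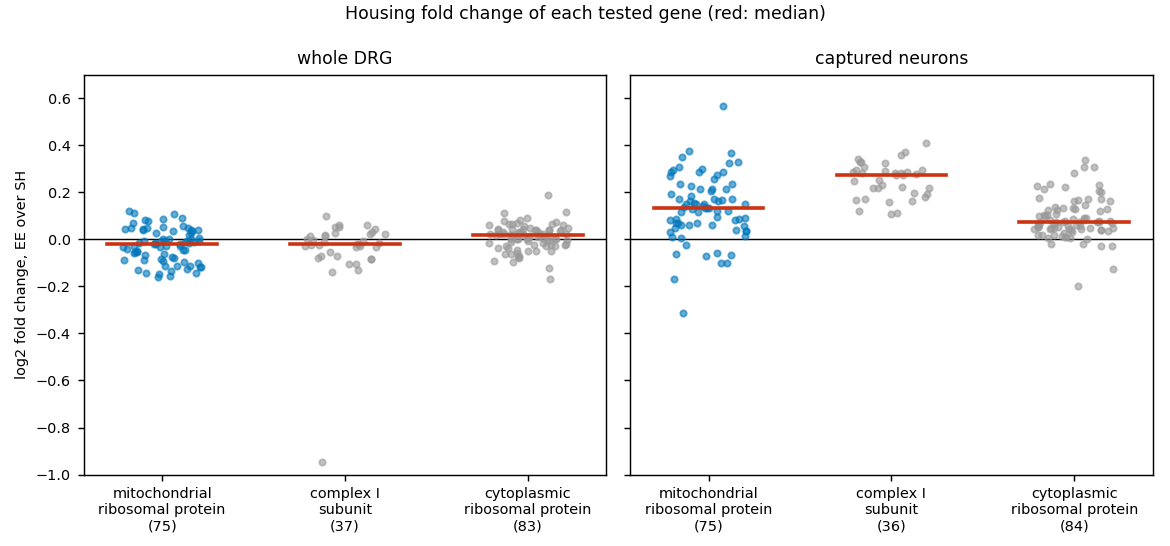
Each point is a gene's log2 fold change of EE over SH, for mitochondrial ribosomal protein, complex I and cytoplasmic ribosomal protein genes (number tested in brackets), left whole DRG and right captured neurons; the red line is the median. The members' median is −0.02 in whole DRG and 0.13 in captured neurons, where the complex I genes lie higher, at 0.27. The single grey point near −0.95 is Ndufa4l2, taken into the complex I group by its name alone.

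Mrps14, a protein of the small subunit's head with a bacterial counterpart, had the smallest p of the members. It had 18.3, 16.7 and 18.5 CPM in captured SH libraries and 23.2, 24.99 and 21.3 CPM in captured EE libraries. Every EE library lay above every SH library, with a log2 fold change of 0.38 (SE 0.097, adjusted p = 0.130 by edgeR's quasi-likelihood test). Over 17 alternatives the log2 fold change lay between 0.31 and 0.43 and the adjusted p between 0.0464 and 0.450, the lowest being DESeq2's.

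Mrpl42, the member with the highest FPKM in whole DRG, had 21.3, 20.9 and 21.8 CPM in SH and 28.3, 25.04 and 25.8 CPM in EE. The log2 fold change was 0.31 (SE 0.086, adjusted p = 0.153 by edgeR). Mrpl44, which has the fold of an RNA-cutting enzyme and whose human counterpart is mutated in an infantile heart disease, had 11.8, 11.5 and 12.4 CPM in SH and 14.3, 15.5 and 15.7 CPM in EE. Its log2 fold change was 0.35 (SE 0.10, adjusted p = 0.165 by edgeR). The groups overlapped in neither gene, and the NRF1 letters 35 bases before the start of Mrpl44 are among the windows printed above.

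Mrps22, a small-subunit protein specific to mitochondria that is also known from human disease, had 22.8, 19.5 and 20.8 CPM in SH and 26.7, 23.6 and 26.6 CPM in EE, a log2 fold change of 0.29 (SE 0.095). Mrpl18, whose human counterpart is known to help carry 5S ribosomal RNA into mitochondria, had 32.5, 24.1 and 30.2 CPM in SH and 37.2, 34.7 and 36.9 CPM in EE (0.33, SE 0.11). Mrps7, in the head of the small subunit, had 17.1, 16.6 and 16.0 CPM in SH and 23.6, 18.99 and 19.5 CPM in EE (0.32, SE 0.11). In each of the 3 genes the lowest EE library lay above the highest SH library, and the adjusted p was 0.196, 0.196 and 0.198 by edgeR. The largest fold change among the members belonged to Mrpl34 (0.57, SE 0.22), at a low level of 2.62 ± 0.643 CPM in SH and 3.87 ± 0.314 CPM in EE (SD, n = 3).

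Mrpl33 went against the rest. This large-subunit protein with a bacterial counterpart had 15.6, 16.1 and 15.5 CPM in captured SH libraries and 13.7, 12.3 and 11.8 CPM in captured EE libraries. All EE libraries lay below all SH libraries, with a log2 fold change of −0.31 (SE 0.11, adjusted p = 0.199 by edgeR) and a range of −0.38 to −0.27 over 17 alternatives. In whole DRG its log2 fold change was −0.08 (SE 0.097). The other members on the lower side with the smallest p had overlapping groups: Mrpl19 (−0.10, SE 0.088), Mrpl23, at the exit of the peptide tunnel (−0.17, SE 0.16), Mrps30, a large-subunit protein despite its name (−0.07, SE 0.10), Mrpl17 (−0.06, SE 0.092) and Mrps18b (−0.10, SE 0.17).

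Among the members picked for their roles, Mrpl3 had 46.3, 44.3 and 43.2 CPM in captured SH and 49.8, 52.1 and 52.7 CPM in captured EE (log2 fold change 0.21, SE 0.071, adjusted p = 0.203 by edgeR), without overlap. The stalk proteins lay lower, with Mrpl12 at 0.17 (SE 0.11), Mrpl11 at 0.13 (SE 0.14) and Mrpl10 at 0.11 (SE 0.13), each with overlapping groups. Mrpl36, whose promoter window with the YY1 letters is printed above, had 8.42, 7.77 and 6.62 CPM in SH and 6.72, 8.84 and 7.44 CPM in EE (0.01, SE 0.16). Of the small-subunit genes, Mrps18c had 0.27 (SE 0.14), Mrps2 0.19 (SE 0.11), Mrps16 0.13 (SE 0.14), Mrps18a 0.12 (SE 0.12), counted with the large subunit, Mrps12 0.09 (SE 0.14), Mrps34 0.08 (SE 0.16) and Mrps5 0.07 (SE 0.077), and all of these had overlapping groups. Mrps36, the gene of the oxoglutarate dehydrogenase complex, had 11.1, 9.56 and 10.1 CPM in SH and 13.5, 11.7 and 12.4 CPM in EE (0.29, SE 0.12), without overlap. Mrps36 thus lay on the side of the ribosomal genes.

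The other members with an unadjusted p under 0.05 in captured neurons were all on the higher side and all of the large subunit. Mrpl55 had 16.3, 15.9 and 15.7 CPM in SH and 20.1, 20.2 and 17.3 CPM in EE, a log2 fold change of 0.27 (SE 0.10). Mrpl41, the member with the highest level per length in captured neurons, had 36.5, 34.2 and 35.3 CPM in SH and 45.3, 37.2 and 41.4 CPM in EE (0.22, SE 0.089). Mrpl35 had 33.0, 34.0 and 35.1 CPM in SH and 39.4, 36.7 and 38.8 CPM in EE (0.17, SE 0.075). In these 3 genes the groups did not overlap. Nor did they for Mrpl50 (0.23, SE 0.088) and Mrpl46 (0.21, SE 0.096), which also had an unadjusted p under 0.05. Mrpl21 had 17.3, 12.5 and 18.98 CPM in SH and 22.7, 20.3 and 19.7 CPM in EE (0.36, SE 0.15), with SH replicate 2 far below the other 5 libraries and no overlap. Mrpl32, which has the NRF1 letters in its promoter and whose maturation by a protease is a known step of ribosome assembly, had 18.7, 15.6 and 13.96 CPM in SH and 20.5, 18.3 and 20.1 CPM in EE (0.29, SE 0.12). Here the highest SH library lay above the lowest EE library. Groups that did not overlap but an unadjusted p above 0.05 were found for Mrpl15 (0.21, SE 0.099), Mrpl4, at the peptide tunnel (0.23, SE 0.12), Mrps28 (0.30, SE 0.17) and Mrps21 (0.14, SE 0.080). The spread between libraries of a group was larger in captured neurons: the median coefficient of variation over the 75 genes was 7.76% in SH and 7.32% in EE, against 4.12% and 6.84% in whole DRG. It was highest for Mrpl14 (33.5% in captured SH), the member with the lowest level per length there, and lowest for Mrps28 (0.338% in captured EE).

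**Figure D4:**
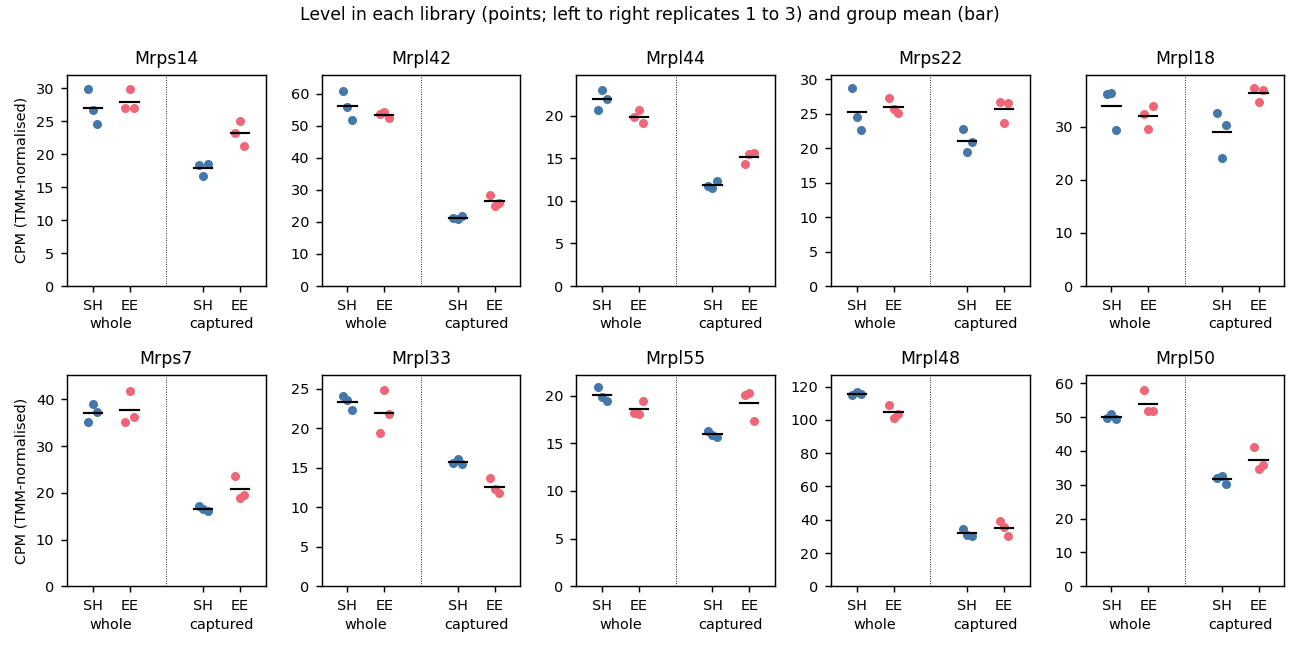
CPM of 10 members in each library (points, replicates 1 to 3 from left to right; blue SH, red EE) with the group mean as a bar, whole DRG left and captured neurons right of the dotted line. In captured neurons the red points lie above the blue ones for 8 genes, below them for Mrpl33, and mixed for Mrpl48; in whole DRG they lie below for Mrpl44, Mrpl55 and Mrpl48 and above for Mrpl50.

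Most genes of both subunits and of both families lay on the higher side. In captured neurons 42 of 48 large-subunit genes and 23 of 26 small-subunit genes had a positive log2 fold change, with medians of 0.14 and 0.10. Of the genes with a bacterial counterpart 40 of 46 were positive (median 0.15), and of those specific to mitochondria 25 of 28 (median 0.10). In whole DRG the 4 medians were −0.02, −0.01, −0.01 and −0.04. By promoter motif, the median fold change was 0.14 for 12 genes with the NRF1 letters and 0.13 for 54 tested genes without them, 0.12 for 23 with the ETS letters and 0.15 for 43 without, and 0.07 for 8 with the YY1 letters and 0.14 for 58 without. No test was made between these classes.

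The size of the shift in captured neurons differed between libraries. Summed over the 75 genes, the SH libraries held 1493, 1379 and 1411 CPM and the EE libraries 1670, 1521 and 1510 CPM. The lowest EE sum lay above the highest SH sum, yet by the median over genes, relative to the SH mean, SH replicate 1 (0.07) lay above EE replicate 3 (0.06), with EE replicate 1 at 0.22 and EE replicate 2 at 0.09. EE replicate 1 was the highest of the 6 libraries for 45 of the 75 genes and SH replicate 2 the lowest for 34. These are the 2 libraries that ran alone in a lane. Within lane 3, with 2 libraries per housing, 53 of 75 genes were positive and the median was 0.06, with 6 genes at an unadjusted p under 0.05 and 0 called, where 4.06% of all genes were called. Without EE replicate 1, 56 were positive, the median was 0.08 and 7 genes had an unadjusted p under 0.05. Without SH replicate 2, which held the muscle transcripts, 61 were positive with a median of 0.12. The count of genes at an unadjusted p under 0.05, 17 with all libraries, was 10 without SH replicate 2, 9 without SH replicate 3 and 11 without EE replicate 3. For lane 3 and the fits without a library, the share of all genes at that p, or with a positive log2 fold change, was not computed. Neither kind of count can therefore be read against a background share. Over the main fit and all alternatives in captured neurons, the median log2 fold change of all genes lay between −0.0086 and 0.0175.

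**Figure D5:**
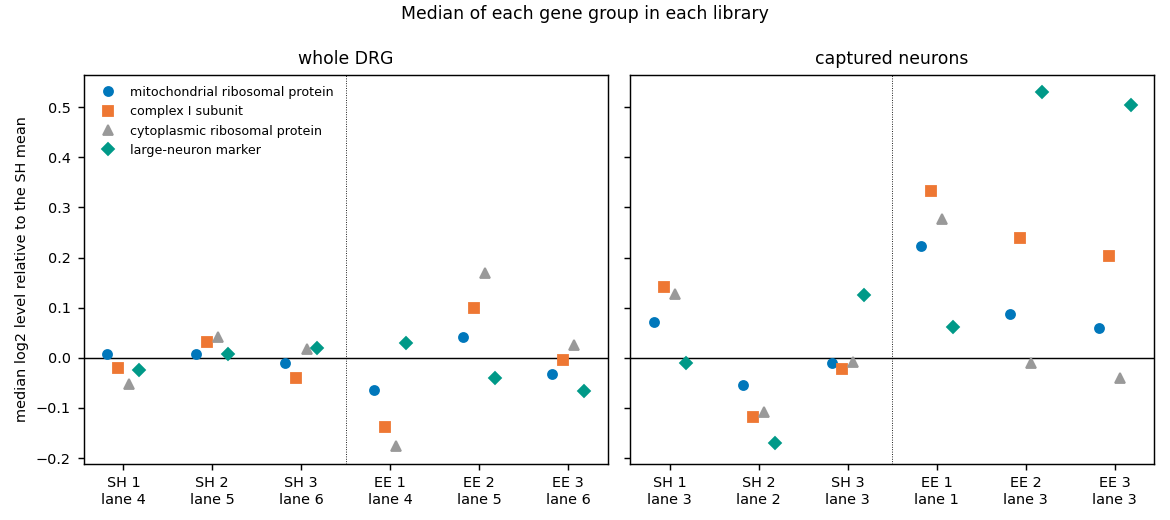
Median log2 level of 4 gene groups in each library relative to the mean of the 3 SH libraries (x axis: library and sequencing lane; whole DRG left, captured neurons right, dotted line between housings). In captured neurons the members (blue circles) lie highest in EE 1, at 0.22, and at 0.09 and 0.06 in EE 2 and EE 3, whereas the large-neuron markers (green diamonds) lie at 0.06 in EE 1 and at 0.53 and 0.50 in EE 2 and EE 3.

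Marker levels of several cell types differed between the housings in captured neurons. Of 15 large-neuron markers 14 had a positive log2 fold change (median 0.43), summing to 9366 to 11499 CPM in SH and 11818 to 16034 CPM in EE. Of 15 nociceptor markers 13 had a negative one (median −0.45), summing to 3978 to 4759 CPM in SH and 3106 to 3917 CPM in EE. Satellite glia markers, from the cells that wrap neuronal cell bodies, were positive for 8 of 10 (median 0.11, 2571 to 2858 CPM in SH and 3122 to 3467 CPM in EE), and macrophage markers for 9 of 11 (median 0.33, 38.8 to 56.9 CPM in SH and 51.4 to 60.8 CPM in EE). Endothelial markers were positive for 9 of 10 (median 0.17, 134 to 149 CPM in SH and 138 to 160 CPM in EE). None of the markers tested was at 0 in a whole group. Muscle markers were negative for 7 of 7 (median −4.74), which rests on SH replicate 2. Sequencing lane was uneven over the housings and these markers differed between them, and the part of either in the members' result was not tested. Values by library are given here for large-neuron and macrophage markers only, and their relation to the members was not tested. By library, relative to the SH mean, the large-neuron median was 0.06 in EE replicate 1, where the members were highest, and 0.53 and 0.50 in EE replicates 2 and 3. The macrophage median was 0.45, 0.35 and 0.16 in EE replicates 1 to 3 and 0.21, −0.12 and −0.14 in the SH replicates, so that EE replicate 1 was highest for the macrophage markers as for the members. EE replicate 1 was also highest for complex I genes (0.33) and cytoplasmic ribosomal protein genes (0.28).

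Both gene groups set beside the members in captured neurons, 1 with a higher and 1 with a lower median, are nuclear genes for the respiratory chain and for the cytoplasmic ribosome. Complex I genes were positive for 36 of 36 (100%), with a median of 0.27. Of these, 24 were higher at an unadjusted p under 0.05 (66.7%, beside 7.3% of all genes). Cytoplasmic ribosomal protein genes were positive for 78 of 84 (92.9%), with a median of 0.07. Of these, 2 were higher at an unadjusted p under 0.05 (2.38%, beside the same 7.3%). Within lane 3 the medians were 0.17 and −0.08, with the members at 0.06, and without EE replicate 1 the cytoplasmic group lay at −0.04. In whole DRG the complex I and cytoplasmic groups had medians of −0.02 and 0.02. No member or gene of these 2 groups was called in either preparation by edgeR.

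Genes that work with the mitochondrial ribosome gave mixed counts in captured neurons, and none passed the threshold. Of 7 ribosomal proteins with other symbols, 7 were positive (median 0.15), led by Ptcd3, a small-subunit protein (61.4 ± 1.49 CPM in SH and 73.4 ± 5.67 CPM in EE, SD, n = 3, log2 fold change 0.26, SE 0.076). Of 17 translation factors tested, 14 were positive (median 0.14). An unadjusted p under 0.05 was found for 6, all higher in EE, beside 7.3% of all genes on that side. The sums of these factors did not overlap between housings (564 to 594 CPM in SH, 633 to 654 CPM in EE). Among the translation factors were the elongation factors Gfm1 (107 ± 8.67 and 128 ± 3.68 CPM, 0.26, SE 0.073), Tufm (22.5 ± 0.926 and 28.1 ± 2.98 CPM, 0.32, SE 0.097) and Tsfm (11.3 ± 0.168 and 13.5 ± 0.465 CPM, 0.25, SE 0.10), and the initiation factor Mtif2 (0.20, SE 0.071). In these 4 genes every EE library lay above every SH library.

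Of 23 assembly factors 16 were positive (median 0.06), led by Malsu1, which acts late in large-subunit assembly (0.29, SE 0.098). Aminoacyl-tRNA synthetases and related enzymes were positive for 9 of 21 (median −0.01), with Lars2 at −0.29 (SE 0.13), and regulators of mitochondrial transcription and of nuclear genes for mitochondria for 7 of 13 (median 0.01), with the nuclear receptor Esrra at 0.48 (SE 0.15). Messenger RNAs encoded in the mitochondrial genome were positive for 8 of 11 (median 0.06), with mt-Co3 at 0.17 (SE 0.062). The ribosomal RNAs mt-Rnr1 and mt-Rnr2, the core of the same ribosome, had log2 fold changes of −0.09 (SE 0.18) and −0.07 (SE 0.14). The level of mt-Rnr2 differed between the preparations, with 5498 ± 746 CPM in captured SH and 391 ± 78.4 CPM in whole SH libraries (SD, n = 3). In whole DRG the mitochondrial messenger RNAs were positive for 10 of 10 (median 0.12, range 0.11 to 0.18), each with overlapping groups. There 0 genes of these lists passed the threshold by edgeR, and 0 had an unadjusted p under 0.05.

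The difference of the housing effect between preparations was tested itself, as the interaction over all 12 libraries. None of the 75 members passed by edgeR's quasi-likelihood test after Benjamini-Hochberg adjustment, where 0.0% of 17412 genes did. The difference, captured minus whole, was positive for 66 of 75 members, beside 8451 of 17412 genes. Its median was 0.14, against −0.0089 over all genes. An unadjusted p under 0.05 was found for 12 members, beside 11.7% of all genes. In all 12 the captured effect lay above the whole effect (16%, beside 5.29% of all genes). Mrpl44 had the smallest p. By TMM CPM its groups did not overlap in either preparation, with EE above SH in captured neurons. In whole DRG EE lay below SH (20.74, 23.1 and 21.97 CPM in SH, 19.9, 20.70 and 19.2 CPM in EE). That gap was narrow, and by the authors' FPKM the groups of Mrpl44 overlapped there. Its difference was 0.48 (SE 0.13, unadjusted p = 0.00185, adjusted p = 0.208 by edgeR). Mrpl42 (0.37, SE 0.11) and Mrpl55, with a bacterial counterpart (0.37, SE 0.13), followed, with adjusted p of 0.239 and 0.288. Mrpl50, also specific to mitochondria, was the 1 gene whose EE libraries lay above SH in both preparations (49.8, 51.0 and 49.4 CPM against 58.1, 51.9 and 51.8 CPM in whole DRG, and 32.2, 32.7 and 30.2 CPM against 41.1, 34.8 and 35.9 CPM in captured neurons). Among the members picked for their roles the difference ran from −0.06 (SE 0.20) in Mrps18b to that of Mrpl44, with Mrps36 at 0.34 (SE 0.14), Mrps22 at 0.24 (SE 0.14) and Mrpl11 at 0.01 (SE 0.16). Mrpl33 lay on the other side, at −0.24 (SE 0.14). Across the 75 members the 2 fold changes had a Spearman's rho of 0.28, with 25 positive in both, 8 negative in both, 41 positive in captured neurons alone and 1 in whole DRG alone.

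Some of the genes also start close to another gene in the genome. A protein-coding neighbour started on the opposite strand within 1000 bases before to 100 bases past the start for 18 of the 76 genes (23.7%), against 7.23% of 21951 protein-coding genes in GENCODE vM21. That background counts genes whether or not they were tested in DRG, and the share among tested genes was not computed. Some of these neighbours encode mitochondrial proteins too, such as Ndufs6, a complex I subunit beside Mrpl36, and Sars2, the mitochondrial seryl-tRNA synthetase beside Mrps12. For Mrpl36 the neighbour was placed from the GENCODE start, which is not the RefSeq start of the window printed above. Mrpl46 and Mrps11 are themselves neighbours on chromosome 7, where Mrpl46 runs on the minus strand from 78775236 to 78783531 and Mrps11 on the plus strand from 78783119 to 78792989. They share 12.2% and 7.97% of their exon bases, so reads there cannot be assigned without strand. In captured neurons Mrpl46 had a log2 fold change of 0.21 (SE 0.096) and Mrps11 of −0.06 (SE 0.14). Of the genes described for captured neurons, Mrps14 lies at chr1:160195215-160202170 (plus strand), Mrpl42 at chr10:95480805-95501940 (minus strand), Mrpl44 at chr1:79776018-79781445 (plus strand) and Mrpl33 at chr5:31596935-31664384 (plus strand) in GRCm38.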

How the data were processed

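RNA sequencing covered 12 libraries. Whole DRG went into a TruSeq mRNA kit and captured neurons into a RiboZero ScriptSeq kit, per the labels' protocols. Per the submitters' processing notes the build was mm10, and the tools named, without roles, include HTSeq 0.6.0, TopHat2 2.0.12 with Bowtie2 2.2.3, and edgeR 3.8.6. The count tables deposited by the authors give read counts per gene name. The deposited FPKM of whole DRG are those counts divided by a gene length and the library total, a length recovered here with a coefficient of variation of at most 0.00015 per gene, and 622 names had more than 1 row, of which the first was used. The deposited table named FPKM for captured neurons is proportional to counts and was not used. Whole-DRG columns also have Sham in their names, a term absent from the labels. Columns of other samples numbered 0.

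Counts were fitted with edgeR 4.0.16 (R 4.3.3), each preparation on its own: filterByExpr, TMM, quasi-likelihood test, Benjamini-Hochberg adjustment at 0.05 over all genes. Fold changes are on the log2 scale. Alternatives were DESeq2 1.42.0, voom (limma 3.58.1), other scalings and filters, a replicate block, offsets for transcript length and GC content (splines with 4 degrees of freedom, with a reference for 98.5% and 97.9% of tested genes), lane 3 by itself and fits without each library in turn. Lane 3 with offsets was added after seeing the data. Scripts were tested on simulated data. Libraries of a group were no duplicates (chi-square per degree of freedom 3.95 to 21.5). The common biological coefficient of variation was 0.0741 in whole DRG and 0.121 in captured neurons.

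Replicate numbers pair whole-DRG libraries through the lanes in the labels. Deviations of same-numbered libraries from their group means correlated at 0.44, 0.29 and 0.0035 there, and at 0.21, −0.08 and 0.27 in captured neurons, whose lanes do not pair them.

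The members, lists, tests and the rule for named genes were chosen with earlier results of these data known. Named were, per housing comparison, the 6 tested members with the smallest p in each direction, the 5 highest and 5 lowest by FPKM, 15 members picked for their roles, the 3 with the smallest p in the difference and up to 4 genes of each partner list, of which some are given. Further members, such as Mrpl14, Mrpl34, Mrpl39 and those that only an unadjusted p or the lack of overlap set apart, and Ndufa4l2 were named after their values were seen. Gene positions are from GENCODE vM21 and promoters from RefSeq.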

Additional observations from a re-analysis of the deposited data

Results flagged for a closer look

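Mrpl44 and Mrpl55 are listed because, by TMM CPM, their EE libraries all lay on 1 side of SH in whole DRG and all on the other side in captured neurons. In whole DRG the gaps were very narrow. The lowest SH and highest EE libraries held 20.74 and 20.70 CPM for Mrpl44, and 19.42 and 19.41 CPM for Mrpl55. By the authors' FPKM the Mrpl44 groups overlapped there (SH replicate 1 at 14.43, EE replicate 2 at 14.55). Mrpl44 had log2 fold changes of −0.14 in whole DRG and 0.35 in captured neurons, a difference of 0.48 with an adjusted p of 0.208 by edgeR. Mrpl55 had 20.9, 19.8 and 19.4 CPM in SH and 18.2, 18.0 and 19.4 CPM in EE in whole DRG, and 16.3, 15.9 and 15.7 CPM in SH and 20.1, 20.2 and 17.3 CPM in EE in captured neurons. Its difference was 0.37 (SE 0.13, adjusted p = 0.288 by edgeR). Neither difference passed the threshold, and both kept their sign when each library was left out.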

How the results depend on the processing

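No member was called in whole DRG or for the difference between preparations under any alternative run. In captured neurons DESeq2 called 1, Mrps14. With the replicate block 0 members were called in whole DRG (32 genes in all), 0 in captured neurons (0 in all) and 0 for the difference, and pairing by number thus changed no call of a member. The members' median log2 fold change in captured neurons was 0.0491 in lane 3 with length and GC offsets, the cause not being tested, and 0.0843 to 0.173 when each library was left out. In whole DRG that median lay between −0.0588 (without EE replicate 2) and 0.00070 (without EE replicate 1). The count of members with a positive log2 fold change in captured neurons lay between 50 and 67 over 17 alternatives, and that at an unadjusted p under 0.05 between 6 and 19. The latter was 0 to 4 in whole DRG, where it was 0 without each library in turn but for EE replicates 1 and 2. The share of all genes at that p, or with a positive log2 fold change, was not computed under the alternatives.

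Signs turned for some named members, of which Mrpl11 in captured neurons lies at about the members' median. In whole DRG Mrps18a was 0.0140 with length and GC offsets and 0.0113 with those and the replicate block, where Mrps12 was 0.0010. In captured neurons Mrpl11 was −0.0944 in lane 3 alone and −0.0964 there with offsets, and Mrps34 −0.0260 and −0.0278. Leaving out each library in turn gave, in whole DRG, ranges of −0.0147 to 0.115 for Mrpl3, −0.0617 to 0.102 for Mrpl12, −0.00886 to 0.0726 for Mrps2, −0.0769 to 0.0473 for Mrps5, −0.0646 to 0.0220 for Mrps12, −0.0652 to 0.0552 for Mrps18a and −0.0386 to 0.143 for Mrps22. In captured neurons the ranges were −0.136 to 0.0033 for Mrps30, −0.212 to 0.0869 for Mrps18b, −0.0021 to 0.213 for Mrps12 and −0.0697 to 0.179 for Mrps34. Depth limits low genes most: Mrpl14 held 26 to 63 reads per captured library.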
